A study of Sus scrofa with 36 samples.

Results

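Circular RNAs (circRNAs) whose back-splice junction closes over fewer than 500 bases of the genome were examined in the hearts of newborn pigs. The junction tables of the 3 sequencing batches were joined on chromosome, start, end and strand, and the span of a junction was taken as its end minus its start. A junction was kept when its span was under 500 bases, it lay on a numbered chromosome, it had at least 3 back-spliced reads in total, and it was counted in at most 27 of the 36 libraries. These criteria gave 908 short-span circRNAs among 48111 junctions of any span (1.89%). They held 12118 of 883850 back-spliced reads (1.37%). Members were thus chosen by span and by measured values, the read total and the number of libraries, and both of these values are given below as a description.

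The study asked how circRNAs change in the heart over the first weeks after birth, and compared postnatal day 1 (P1) with P3, P7 and P28. The animals were domestic Yorkshire pigs of both sexes, fed normally, with 6 animals at each age and hearts frozen in liquid nitrogen. Novogene sequenced 12 pigs, 3 at each age, first as circRNA sequencing (batch nv1), for which the methods describe treatment with RNase R, an exonuclease that digests linear RNA, and later from new samples of the same 12 animals as total RNA (batch nv2). CD Genomics sequenced the 12 other pigs, again 3 at each age, as total RNA (batch cd). The pig was the replicate: for the comparisons of age, the 2 Novogene libraries of an animal were added together. The ages were therefore compared over 23 pigs, 11 from Novogene and 12 from CD Genomics, without the P28 pig whose nv1 library had 1604 back-spliced reads. The other nv1 libraries had 15730 to 65478 back-spliced reads, the nv2 libraries 10819 to 17027 and the cd libraries 8636 to 49042. In the gene counts of the cd libraries, the heart muscle genes ACTC1 (cardiac actin), MYBPC3 and TNNI3 (sarcomere proteins) ranged from 8746 to 26550 CPM (counts scaled to library size), the fast skeletal muscle gene ACTN3 did not exceed 1.44 CPM, and the liver genes AHSG, HRG, FETUB and KNG1 did not exceed 0.433 CPM. PLN and CSRP3 (heart) and TNNI2 and TNNT3 (skeletal muscle) had no entry in that table, and no gene table of the Novogene libraries was used here.

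A circRNA forms when the splicing machinery joins the end of an exon to the start of the same or an upstream exon, which leaves a closed loop with no free ends. Loops are therefore resistant to RNase R and are detected from the reads that cross the back-splice junction. The genomic span of a junction is the length of the loop only where no intron within it is removed, and a long span usually includes introns that are. A span under 500 bases can hold 1 exon or a few short exons and introns. CircRNAs are abundant in heart muscle, where some are known to act on the growth and division of cardiomyocytes.

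The shortest member spanned 19 bases and the longest lay 1 base under the limit, with a median of 364 bases and quartiles of 290 and 431. The median over all 48111 junctions was 8727 bases. Members were concentrated at the upper end of their range: 7 spanned under 100 bases, 49 from 100 to under 200, 193 from 200 to under 300, 331 from 300 to under 400 and 328 from 400 to under 500. The histogram of spans shows this rise.

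**Figure D1:**
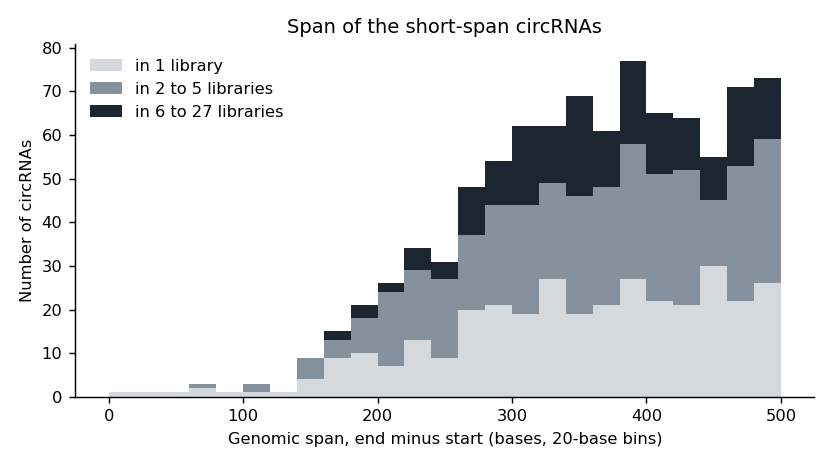
Number of short-span circRNAs (y axis) by genomic span in bases (x axis, 20-base bins), stacked by whether the circRNA was counted in 1, in 2 to 5 or in 6 to 27 of the 36 libraries. Most of the 908 members lie above 200 bases, and each of these bins holds members of all 3 detection classes.

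Most members were seen in few libraries. The median member had 6 reads in 2 libraries, and 335 members (36.9%) were counted in 1 library. Under the same rule on reads, libraries and chromosomes, the share counted in 1 library was 18.4% of 7241 circRNAs that spanned 500 to under 5000 bases, 14.35% of 14533 that spanned 5000 to 50000 and 18.8% of 1303 that spanned more. At the other end, 191 members were counted in 6 to 27 libraries and 36 in 18 or more. Of the 335 members of 1 library, 249 came from batch cd, 64 from nv1 and 22 from nv2, and 116 came from the 5 cd libraries in which under 20% of the junctions had a single count. Reads were uneven also where several libraries held a member: in 281 of 573 members counted in 2 or more libraries, 1 library gave 50% or more of the reads. The 10 members with the most reads held 13.5% of all member reads and the first 100 held 52.8%.

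The batches shared only part of the members. Batch nv1 held 558 members, nv2 276 and cd 690, and 181 members (19.9%) were in all 3. This share was 34.4% among circRNAs that spanned 500 to under 5000 bases and 39.2% among those that spanned 5000 to 50000, under the same rule. By age, 156 members were counted at all 4 ages, 156 at 3, 212 at 2 and 384 at 1, of which 121 were seen at P1 only, 71 at P3 only, 82 at P7 only and 110 at P28 only. With a median of 6 reads a member, its absence at an age is a matter of depth as well as of level, and these counts were not tested. The same counts by age were not taken over longer circRNAs, so they show no trait of short spans.

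Short-span circRNAs lay on all 18 numbered chromosomes and in unequal shares. Among the junctions that met the same rule on reads and libraries, 6.61% on chromosome 12, 6.42% on chromosome 2, 6.15% on chromosome 6 and 5.62% on chromosome 7 were short. The lowest shares were 1.59% on chromosome 11, 1.79% on chromosome 8 and 1.82% on chromosome 15, against 3.79% over all. Chromosomes 12, 2 and 7 also had the highest shares of circRNAs that spanned 500 to under 5000 bases, at 36.6%, 35.1% and 34.5%, whereas chromosome 11 had the lowest, at 23.5%. These shares are given without a test, since members of 1 chromosome can share a locus.

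**Figure D2:**
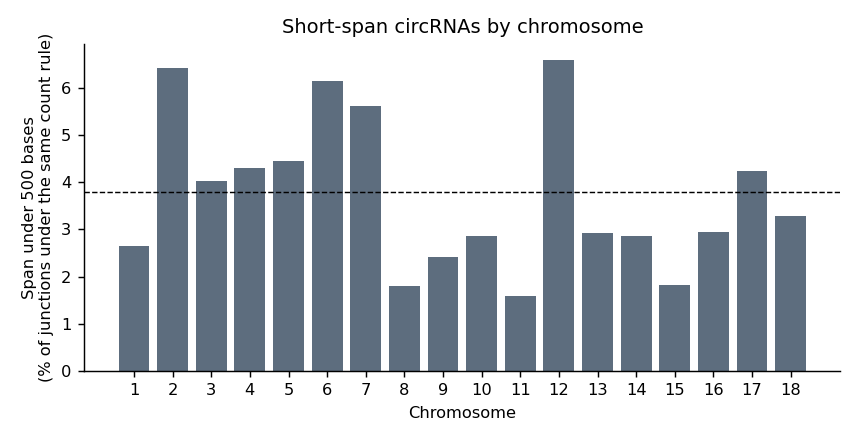
Share of circRNAs with a span under 500 bases among all circRNAs under the same rule on reads and libraries (y axis, percent) on each numbered chromosome (x axis); the dashed line is the share over all chromosomes. Chromosome 12, at 6.61%, is the highest bar and chromosome 11, at 1.59%, the lowest.

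Many members shared an end position with another circRNA. The start of 306 members was also the start of another junction on the same strand, the end of 292 members was also the end of another, and 495 members (54.5%) shared at least 1 of the 2 positions. A longer junction of the same strand enclosed 584 members (64.3%). These shares were not taken for longer circRNAs, so whether they are particular to short spans is not known. A further junction with both ends within 5 bases was found for 164 members. When members within 5 bases of each other at both ends were joined, the 908 members fell into 838 groups, of which 43 groups held 113 members. In each of the 104 such pairs of members 1 end was identical, the start in 61 pairs and the end in 43, and the spans differed by 1 base in 37 pairs and by 2 bases in 29. Members of a group therefore share an end position and are not independent. Whether these ends are splice sites was not checked.

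The largest of these groups lay on the plus strand of chromosome 12, at chr12:1163311-1163668 in the Sscrofa10.2 assembly used by the deposited tables. All 9 members began at 1163311, and their ends fell between 1163657 and 1163668. The member that ended at 1163659 had 127 reads in 18 libraries. Those that ended at 1163665 and 1163664 had 87 reads each, in 24 and 23 libraries. The one that ended at 1163657 had 54 reads in 18 libraries, and the 5 others had 3 to 17 reads. Together the group held 400 reads, more than any single member of the whole set. A second group on the same chromosome began at 5253881. Its member ending at 5254176 had 146 reads in 23 libraries, while the junction that ended 1 base earlier, at 5254175, had 265 reads in 30 libraries and so was not a member. At these positions the rule on the number of libraries separated neighbours that differed by 1 base.

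The densest stretch was a region of 50564 bases on the minus strand of chromosome 7, chr7:81036503-81087067. It held 25 members in 13 groups, with 514 reads or 4.24% of all member reads, and 10 of them were counted in 6 or more libraries. The 25 members had 25 different starts and 11 different ends, with spans from 194 to 463 bases. The member with the most reads there was chr7:81056323-81056666, with 127 reads in 18 libraries, followed by chr7:81086678-81087067 with 60 reads in 14 libraries. In all, 113 junctions of any span lay inside the stretch and none was counted in over 27 libraries. No other stretch of members less than 100000 bases apart held more than 9 members, and 578 of 699 stretches held 1.

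Reads from the chromosome 7 stretch differed in level between batches. In batch cd the 25 members together ranged from 3.26 to 30.1 reads per 10000 back-spliced reads of a library, in nv1 from 1.33 to 6.26, and in nv2 from 0 to 3.63. The nv1 range is without the P28 library of 1604 reads that was left out of the comparisons. That library also held reads of the stretch, which are counted in the 514. At P1 the 3 cd libraries averaged 14.7 ± 3.48 per 10000 (SD, n = 3), the 3 nv1 libraries 3.98 ± 2.16, and none of the 3 nv2 libraries had a read. At P7 and P28 the cd libraries averaged 17.5 ± 13.5 and 10.18 ± 2.97 (SD, n = 3), so the ages overlapped within the batch. The stretch was picked for its number of members, and its levels carry no test.

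The libraries also differed in what part of their reads fell on the members. The library left out of the comparisons, from P28 Novogene pig 1 in batch nv1, had 237 of 1604 reads on members, or 14.8% (95% Wilson interval 13.1 to 16.6%). In the 11 other nv1 libraries this share was 0.986 to 1.76%, in the 12 nv2 libraries 0.446 to 0.767% and in the 12 cd libraries 1.46 to 2.698%. Such intervals cover counting error only, since reads may repeat a molecule. The library held 57 members, of which 49 were also found elsewhere, and 1 was among the 37 members found in the nv2 library of the same pig, whose read share was 0.551%. Junctions under 500 bases of any count took 20.4% of its reads. Left out of the rule as well, it removed 15 of the 908 members and brought in 1, giving 894.

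In the other libraries, nv1 and cd overlapped in this share, and nv2 lay below both. None of the 12 cd libraries overlapped the 12 nv2 libraries, although both were total RNA. Company, animals and library round differ together between these batches, and their parts cannot be told apart. In the 5 cd libraries with few single counts the read share was 1.46 to 1.90%, overlapping the 7 others, at 1.47 to 2.698%. Those 5 libraries had 3.91 to 12.8 reads per member found, against 2.16 to 3.75 in the 7 others.

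**Figure D3:**
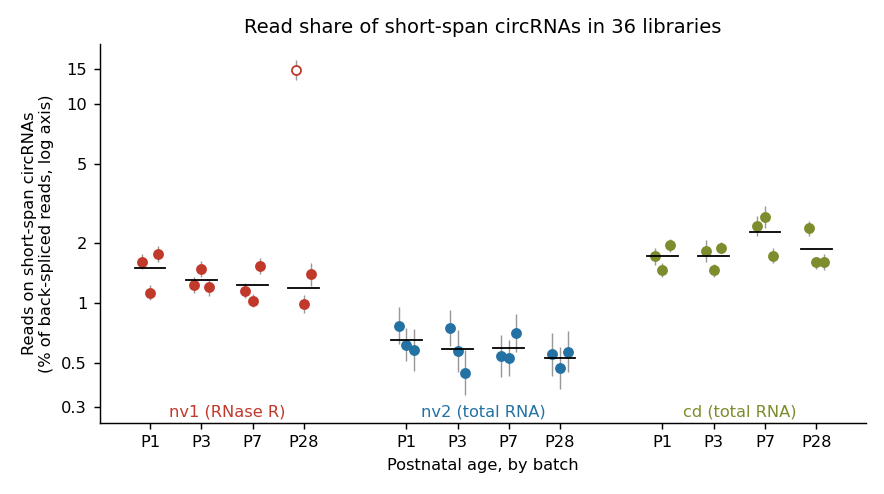
Reads on short-span circRNAs as a percentage of all back-spliced reads of a library (y axis, log scale) by age within each batch (x axis). Points are libraries with 95% Wilson intervals, horizontal lines are group means, and the open point at 14.8% is the P28 nv1 library left out of the comparisons; all nv2 points lie under 0.8% and all cd points above 1.4%.

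The 2 batches of the same Novogene pigs allowed a paired comparison. Short-span circRNAs held 1.32 ± 0.253% of the back-spliced reads in nv1 and 0.595 ± 0.106% in nv2 (SD, n = 11 pigs), a mean difference of 0.723 percentage points. The share was higher in nv1 in 11 of 11 pigs, by 1.65 to 3.04 times with a median of 2.14 times, and no nv2 library reached the lowest nv1 library. A 2-sided exact permutation test that flipped the signs of the 11 paired differences gave p = 0.000977, the smallest p that its 2048 signings can give, and the same after Benjamini-Hochberg adjustment over both shares. The share of detected junctions that were members was 1.96 ± 0.254% in nv1 and 0.998 ± 0.180% in nv2 (n = 11 pigs), again higher in nv1 in 11 of 11 pigs with p = 0.000977 by the exact permutation test. At a depth of 10819 reads in each library, the junction shares were 1.96% and 0.986%. The direction did not rest on the rule for reads and libraries: with all junctions under 500 bases on numbered chromosomes the difference in read share was 0.977 percentage points, with p = 0.000977 by the exact permutation test. RNase R, the library kit, the tissue sample and the sequencing round changed together between nv1 and nv2 and cannot be told apart.

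The difference between nv1 and nv2 changed with span, and within the short-span circRNAs it changed sign. For members of 300 to under 400 bases, the share of reads in nv1 was 2.80 times that in nv2 over the 11 pigs together, and it was higher in nv1 in 11 of 11 pigs, with ratios from 1.84 to 4.41. The ratio was 1.94 for members of 400 to under 500 bases, higher in nv1 in 11 of 11 pigs, and 2.10 for members of 200 to under 300 bases, higher in 10 of 11. For the 49 members of 100 to under 200 bases it was 0.361, from 47 reads in each batch, and nv1 was higher in 2 of 11 pigs. The 7 members under 100 bases had 13 reads in the nv2 libraries and 0 in the nv1 libraries of these pigs. Among longer circRNAs under the same rule the ratio declined from 1.74 at 500 to under 1000 bases to 1.37 at 1000 to under 5000, 0.838 at 5000 to 50000 and 0.635 above 50000 bases, and nv1 was higher in 0 of 11 pigs in the last 2 classes. Because these are shares of one total, a higher share in one class lowers the others, and the classes were not tested separately.

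**Figure D4:**
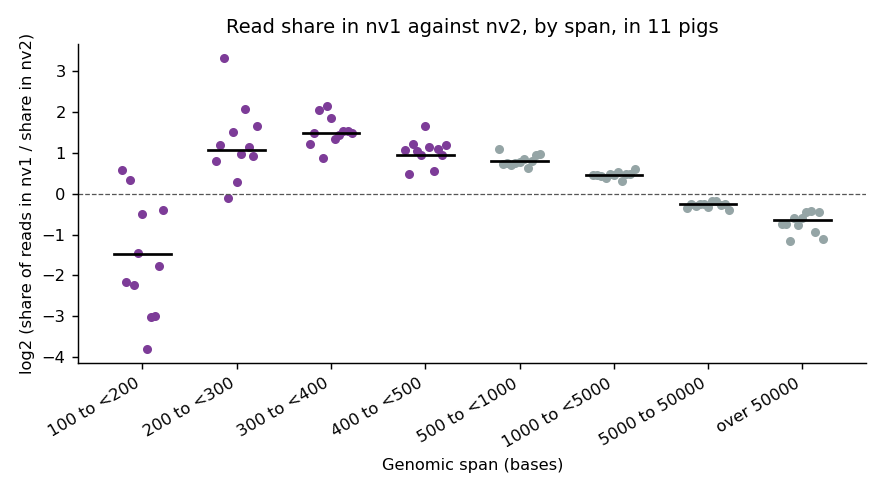
Log2 of the share of reads in nv1 over that in nv2 (y axis) by genomic span (x axis). Each point is 1 of 11 pigs (classes under 500 bases in purple, longer ones in grey), black lines are the ratio of the summed reads, and values above 0 are higher in nv1; the class of 100 to under 200 bases lies mostly below 0, those from 200 to under 5000 bases above it, with 1 pig below in the class from 200 to under 300,, and the 2 longest classes below.

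The 56 members under 200 bases were rare in every batch. They had 73 reads in nv1, 64 in nv2 and 211 in cd. Without the shallow P28 library the nv1 reads were 47. Of the 56 members, 31 were counted in 1 library. The 3 shortest were chr4:10664185-10664204 (plus strand, span 19, 3 reads in nv2 pig 2 at P3), chr14:51057407-51057446 (plus, 39, 4 reads in 1 cd library at P1) and chr6:40636626-40636674 (plus, 48, 5 reads in 1 cd library at P1). Each was found in 1 library, and no longer junction of the same strand enclosed it. The best covered member under 200 bases, chr7:81078072-81078269 on the minus strand, had 45 reads in 10 libraries and lay inside the chromosome 7 stretch.

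For single members the 2 batches were compared in one edgeR quasi-likelihood fit, with the pig as a block, over all junctions that reached 3 counts in 10% or more of the 22 libraries. Of the 908 members, 78 passed this filter, none of them under 200 bases. At a Benjamini-Hochberg adjusted p under 0.05, 18 members (23.1%) were called, all of them higher in nv1. In the 13 of these with reads in nv2 the log2 fold changes were 1.71 to 3.38. The 5 others had 19 to 36 reads in nv1 and 0 in nv2, so their fitted fold changes depend on the prior count and are not given. Over all 4385 junctions tested, 18% were called, 14.2% higher in nv1 and 3.79% higher in nv2. The log2 fold change was above 0 in 77 of the 78 members, with a median of 1.76 beside 0.74 over all junctions tested. With the 9 of the 78 that had 0 reads in nv2 set at 3 counts for the group, the median was 1.69. Members could pass the filter through nv1 alone, which had more reads and more member reads, so the direction of the calls, the count above 0 and the median are in part fixed by the filter, describe these 78 and support nothing about the whole set. Without the pig as a block 31 members were called, 9 without P7 pig 1 and 11 without P28 pig 2.

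The smallest p of these was that of chr7:63556777-63557113 on the plus strand, span 336, which also had the most reads of any member (256 in 26 libraries). Its counts in the 11 nv1 libraries were 4 at the lowest, 13 at the median and 21 at the highest, a total of 127, whereas the nv2 libraries of the same pigs gave 5 reads in all and no library more than 2. Every pig was higher in nv1, and the log2 fold change was 3.38 ± 0.59 (SE), with an adjusted p of 6.1e-07 in edgeR's test. In batch cd it was counted in 11 of 12 libraries, with 124 reads and a median of 3.58 per 10000 back-spliced reads, beside 3.76 in nv1. No nv2 library had more than 2 reads of this member or of those on chromosomes 3, 12 and 9 described next. They passed the filter of 3 counts through nv1 alone, so their p values are given as a description.

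A circRNA on the minus strand of chromosome 3, chr3:24310936-24311423 (span 487), followed. It had 122 reads in the 11 nv1 libraries, from 1 to 24 in a library, and 6 in nv2, and was higher in nv1 in 11 of 11 pigs (log2 fold change 3.02 ± 0.59, SE, edgeR adjusted p = 1.18e-05). In batch cd it was found in 6 of 12 libraries, and its median level of 0.181 per 10000 was far under that of 3.06 in nv1. Another 11 longer junctions enclosed it. The member chr12:1163311-1163659, from the group of 9 described above, had 91 reads in nv1 and 4 in nv2 and was higher in nv1 in 10 of 11 pigs (log2 fold change 3.25 ± 0.69, SE, adjusted p = 6.59e-05). The member chr9:13992619-13992920 (minus strand) had 4 to 13 reads in every one of the 11 nv1 libraries and 6 reads in nv2 in all, with a log2 fold change of 2.67 ± 0.63 (SE) and an edgeR adjusted p of 0.000419.

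Only 1 of the 78 members had a negative log2 fold change. This was chr6:108058139-108058580 on the plus strand, span 441, at -0.05 ± 0.62 (SE), with 16 reads in nv1 and 8 in nv2 and an edgeR adjusted p of 0.965. Its libraries overlapped in level. No member was called higher in nv2.

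The same pigs gave largely different members in their 2 libraries. An nv1 library held up to 211 members, with a median of 159, and the nv2 library of the same pig 37 to 67, with 12 to 38 in common. Of the members in an nv2 library, 28.57 to 70.3% (median 50%) were also in the nv1 library of that pig. The median over the nv1 libraries of the other pigs was 46.05 to 55.3%, and the pig's own library was above it in 7 of 11 pigs. For junctions of any longer span the share found again in the same pig was 31.0 to 61.6% (median 45.9%). A pig's own members were thus found again about as often in another pig's library.

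By age, no difference in the share of reads on short-span circRNAs passed an adjusted p under 0.05 in the exact tests below. The share was 1.48 ± 0.328% at P1 (SD, n = 6 pigs), 1.42 ± 0.376% at P3 (n = 6), 1.68 ± 0.743% at P7 (n = 6) and 1.49 ± 0.595% at P28 (n = 5). Means and SDs here are over both companies, whose levels differed, and P28 had fewer Novogene pigs than the other ages. The differences from P1, averaged over the 2 companies, were -0.063 percentage points at P3, 0.201 at P7, -0.0818 at P28 and 0.0253 for the 3 later ages together. In 2-sided exact permutation tests of age within companies the p values were 0.595, 0.37, 0.665 and 0.872, and the smallest adjusted p over the 8 tests of both shares was 0.812. The share of junctions was 2.31 ± 0.432% at P1, 2.11 ± 0.461% at P3, 2.34 ± 0.770% at P7 and 2.28 ± 0.703% at P28, with p of 0.13, 0.83 and 0.365 in the same exact tests and 0.406 for the later ages together. In a whole heart sample, fewer cells of a type and less RNA per cell give the same change in a share and cannot be told apart.

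The mean read share at each later age lay below that at P1 in the Novogene pigs and above it in the cd pigs. Among the Novogene pigs the mean read share was 1.25% at P1, 1.11% at P3, 1.08% at P7 and 0.942% at P28. Among the cd pigs it was 1.71%, 1.73%, 2.29% and 1.86%. Within companies, the difference between P1 and the later ages was -0.194 percentage points for Novogene (exact permutation p = 0.133) and 0.244 for cd (exact permutation p = 0.3955). For the share of junctions, P3 was below P1 in both companies, with differences of -0.225 percentage points for Novogene and -0.174 for cd, and P7 and P28 were below P1 in Novogene and above it in cd. Over the later ages together the difference was -0.304 for Novogene (exact permutation p = 0.0303) and 0.105 for cd (exact permutation p = 0.5955). With 3 pigs against 3, or 3 against 2, the exact test cannot go below a p of 0.1, so no single later age could pass within a company.

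Of the 908 members, 139 reached 3 counts in 10% or more of the 23 pigs. They entered the edgeR quasi-likelihood fit of ages among 6604 junctions, with the company as a covariate. Junctions were called at a raw p of at most 0.05 with a log2 fold change beyond 0.5 in either direction. At P3, 16 members were called (11.5% of those tested, beside 9.74% of all junctions tested), 5 higher and 11 lower than at P1 (7 and 7 without the cd libraries with few single counts), where 2.53% and 7.21% of all junctions tested were called higher and lower. At P7, 11 were called (7.91% beside 5.78%), 4 higher and 7 lower (2.77% and 3.01% of all). This balance turned, with 12 of 22 called higher without the cd libraries with few single counts, 13 of 25 with no filter on low counts, 5 of 8 in Novogene pigs alone, 5 of 9 with nv2 in place of the sum and 6 of 11 without P1 cd pig 4. At P28, 19 were called (13.7% beside 12.1%), 4 higher and 15 lower (3.33% and 8.78% of all), and without the cd libraries with few single counts 9 and 12. For the 3 later ages together 19 were called (13.7% beside 11.6%), again 4 higher and 15 lower (2% and 9.63% of all), and without P1 cd pig 4 it was 12, 5 higher and 7 lower. These shares were near those of all junctions. The median log2 fold change of the 139 members was -0.59 at P3, -0.27 at P7, -0.47 at P28 and -0.56 for the later ages together, beside -0.40, -0.18, -0.32 and -0.33 over all junctions tested. With members at 0 in an age set at 3 counts for that age, these medians of the members were -0.58, -0.25, -0.46 and -0.56. At an adjusted p under 0.05, 0 of the 139 members were called in any comparison with edgeR and 0 with DESeq2, while 16, 11, 19 and 19 had an unadjusted p under 0.05 in edgeR. The smallest adjusted p of a member was 0.126.

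The members with the smallest p in each comparison of ages are given with their counts per pig. Fold differences with a group set at 3 counts, and counting intervals, use reads summed over pigs. They leave out the spread between pigs. The circRNA chr2:142510446-142510929 (plus strand, span 483) had 0 to 5 reads in a P1 pig, with a median of 2, and was counted in 5 of 6 P1 pigs from both companies. It was counted in 2 of the 17 later pigs, both at P3, with 4 reads in all, and in none at P7 or P28. The log2 fold change for the later ages together was -3.54 ± 0.99 (SE), with an adjusted p of 0.126 in edgeR's test. For P28 alone, 13 reads at P1 stood against 0. The rate was 3.999-fold lower at P28 when the P28 group is set at 3 counts and the P1 reads are taken as they are. The 95% counting interval of the ratio of P28 to P1, which covers the error of both, reached 0.356.

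The opposite pattern was seen for chr9:7355577-7356055 (minus strand, span 478), which had no read in any of the 6 P1 pigs. It had 19 reads in 5 of 6 P7 pigs, from 0 to 7 in a pig with a median of 3, 8 reads in 4 of 6 P3 pigs and 6 reads in 2 of 5 P28 pigs. Its rate at P7 was 6.79-fold higher than at P1, with P1 set at 3 counts for the group and the P7 reads taken as they are (edgeR adjusted p = 0.635). The 95% counting interval of the ratio, which covers the error of both, began lower, at 5.003. For the later ages together it was 3.53-fold higher on the same terms (edgeR adjusted p = 0.243), with an interval from 2.71. A junction 3 bases shorter, from 7355580, had 6 reads in 2 libraries.

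Other members were at 0 in all pigs of an age. The circRNA chr2:149484427-149484720 (minus strand, span 293) had 20 reads in 4 of 6 P1 pigs, at most 9 in a pig, and 0 in the 6 P3 pigs. The rate was 8.42-fold lower at P3 with P3 set at 3 counts for the group and the P1 reads taken as they are (edgeR adjusted p = 0.316). The 95% counting interval of the ratio of P3 to P1, which also covers the error of the P1 reads, reached 0.160. It was counted again in 3 of 6 pigs at P7, with 14 reads, and in 3 of 5 at P28, with 21 reads, of which 18 were in 1 cd library. A junction that began 2 bases later had 22 reads in 7 libraries. The member chr7:81078072-81078269 of the chromosome 7 stretch had 27 reads in 4 of 6 P1 pigs, 4 reads at P3, 0 at P7 and 14 at P28. On the same terms, with P7 set at 3 counts for the group, its rate at P7 was 8.395-fold lower than at P1 (edgeR adjusted p = 0.635). The same interval of the ratio of P7 to P1 reached 0.157. Of its reads at P1, 26 came from the 3 cd pigs. A junction that began 2 bases later with the same end had 25 reads in 9 libraries, with reads also in P7 cd pigs. Its log2 fold change at P7 was -0.68 ± 1.17 (SE), and it was not called.

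The member chr12:26630469-26630952 (minus strand, span 483) had 0 reads at P1 and 16 at P3, in 4 of 6 pigs. Of these, 8 were in 1 of the cd libraries with few single counts. Its rate at P3 was 4.22-fold higher with P1 set at 3 counts for the group and the P3 reads taken as they are (edgeR adjusted p = 0.316). The counting interval of the ratio, which covers the error of both, began lower, at 3.05. The member chr12:1163311-1163659 had 40 reads at P1, from 0 to 16 in a pig, 43 at P3, 28 at P7 and 1 at P28 in the pigs used, and its log2 fold change at P28 was -4.29 ± 1.32 (SE, edgeR adjusted p = 0.268). The ratio of the summed rates was 0.0271, with a 95% counting interval of 0.000669 to 0.160. The P28 library that was left out held 15 reads of this circRNA, and the nv2 library of the same pig held 0. Other members tested from the same start were lower at P28 by less, and none of them was called. Their log2 fold changes were -2.31 (end 1163657), -1.52 (1163663), -1.995 (1163664) and -1.96 (1163665).

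**Figure D5:**
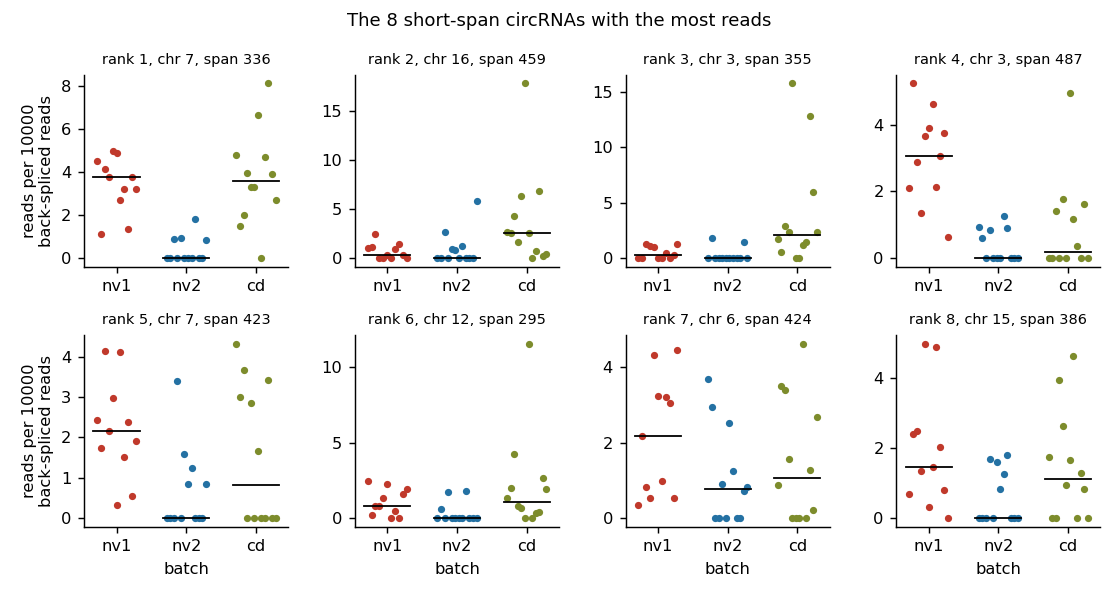
Reads per 10000 back-spliced reads of a library (y axis) in batches nv1 (11 libraries), nv2 (12) and cd (12) (x axis) for the 8 short-span circRNAs with the most reads, titled by rank, chromosome and span in bases. Points are libraries and lines are medians; in nv2 the median is 0 for 7 of the 8, and for 6 of the 8, all but rank 4 and rank 8, the highest point is in cd.

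Beside the chromosome 7 circRNA already described, the members with the most reads differed in which libraries held them. Some were led by single cd libraries. The circRNA chr16:85559058-85559517 (plus strand, span 459) had 210 reads in 24 libraries, of which 76 were in 1 cd library at P3. It reached 17.8 reads per 10000 in that library, against a median of 2.49 in cd, 0.324 in nv1 and 0 in nv2. The circRNA chr3:38897455-38897810 (minus strand, span 355) had 186 reads in 19 libraries, 72 of them in another cd library at P3. Its median was 2.02 per 10000 in cd and 0.269 in nv1. Both of these P3 libraries were among the 5 with few single counts, and the part of this in the levels was not tested.

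Others were spread over the nv1 libraries. The circRNA chr7:58507982-58508405 (plus strand, span 423) had 150 reads and was counted in all 11 nv1 libraries, with 1 to 17 reads, in 5 of 12 nv2 libraries and in 6 of 12 cd libraries. The circRNA chr6:43177208-43177632 (minus strand, span 424) had 143 reads and was also counted in all 11 nv1 libraries, with a median of 2.19 per 10000 beside 0.782 in nv2 and 1.07 in cd. The circRNA chr15:152395888-152396274 (plus strand, span 386) had 134 reads, of which 32 were in the nv1 library of P7 pig 2, the deepest of all libraries. The 3 batches overlapped in level for each of these 3 circRNAs. In the fit with the pig as a block, the ones on chromosomes 7 and 15 were among the 18 called higher in nv1, each higher in 9 of 11 pigs, with log2 fold changes of 1.92 ± 0.60 and 1.83 ± 0.63 (SE, edgeR adjusted p = 0.0120 and 0.0267). Both could pass the filter through nv1 alone, so these calls too are a description.

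The circRNA chr12:5253881-5254176 (plus strand, span 295) stood out for where its reads fell. It had 146 reads in 23 libraries, and 41 of them were in the P28 nv1 library that was left out, which held 1604 reads in all. In the 11 other nv1 libraries it ranged from 0 to 2.43 reads per 10000 with a median of 0.827, in cd from 0 to 11.6 with a median of 1.04, and in nv2 it was counted in 3 of 12 libraries.

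The circRNAs just inside and just outside the limits of the rule are given as a description. At the span limit, 7 members lay 1 base under it, of which chr6:85048145-85048644 (minus strand) had the most reads, 34 in 13 libraries, and 4 junctions spanned exactly 500 bases, of which chr14:95579372-95579872 (minus) had the most reads, 22 in 9 libraries. At the limit on libraries, chr2:29219246-29219660 (minus, span 414) was counted in 27 libraries with 107 reads and was a member, and chr14:42969792-42970190 (plus, span 398) was counted in 28 with 164 reads and was not. In all, 15 junctions under 500 bases were in over 27 libraries. At the limit on reads, 231 members had exactly 3 reads, and 1425 junctions under 500 bases on numbered chromosomes had fewer, 444 with 2 reads and 981 with 1.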

How the data were processed

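Heart RNA of 24 pigs was sequenced in 36 libraries. The authors aligned reads to Sscrofa10.2 with STAR (2.7.9a) and found junctions with CIRCexplorer2. The deposited values are raw counts of back-spliced reads, 1 table for each batch. Deposited gene counts of the cd libraries served only for the tissue check, as CPM, and miRNA counts were not used. Positions are given as in the deposited tables, and circRNAs are named by position because no sequence or gene annotation of Sscrofa10.2 was used here. Removal of duplicate reads is not given in the sources used here.

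Absent junctions were set to 0. The members, lists and tests were chosen with earlier results of these data known. Shares were compared by exact permutation tests (Python 3.11.15, scipy 1.17.1) and single junctions by edgeR 4.0.16 (TMM, quasi-likelihood, R 4.3.3), with DESeq2 1.42.0 as an alternative. The methods leave out 1 Novogene P28 sample without naming it, and the pig with the lowest nv1 total of that age was left out here. In the cd tables the numbers that tell the 3 pigs of an age apart are in no label, so they only name a library. Deviations from the batch and age means of the nv1 and nv2 libraries of the same pig correlated at 0.0139 to 0.104 (median 0.0509), and the pairing of these libraries comes from the study's text. The tests were checked on simulated data. Circular RNAs named are the 8 with most reads, the 3 with the smallest span, the 2 with the smallest p in each comparison of ages, up to 4 with the smallest p in each direction between nv1 and nv2, and 1 at each limit of the rule. Loci on chromosomes 7 and 12 were named after their values were seen.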

Additional observations from a re-analysis of the deposited data

Results flagged for a closer look

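The P28 nv1 library of Novogene pig 1, which enters none of the comparisons, had 14.8% of its 1604 back-spliced reads on short-span circRNAs, against 0.986 to 1.76% in the 11 other nv1 libraries. Of its 237 reads on members, 208 were on 49 circRNAs that other libraries also held, and 45 of its 57 members were also found in batch cd. The cause was not tested.

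The difference in the share of junctions between P1 and P7 was not the same in the 2 companies. Among Novogene pigs the share was 1.95% at P1 and 1.65% at P7, and among cd pigs 2.66% and 3.03%, so that the Novogene difference minus the cd difference was -0.672 percentage points (exact permutation p = 0.02). Between P1 and P28 the Novogene difference minus the cd difference was -0.543 (exact permutation p = 0.035). Over the 8 such tests of both shares the adjusted p was 0.14 for both, so neither passed the correction. Company, animals and library preparation cannot be told apart here.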

How the results depend on the processing

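The higher shares in nv1 than in nv2 kept direction and call in every alternative run: the difference in read share ranged from 0.0716 (span under 300) to 1.85 percentage points, that in junction share from 0.139 to 2.28, and with each pig left out from 0.677 to 0.746 and from 0.920 to 0.992. Without the pairing by pig as a block the differences were 0.723 and 0.961, as before, and both passed. The rule applied without the shallow P28 library, an alternative chosen after seeing the data, changed no call.

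As reported, no comparison of ages passed the threshold in either share, 2 alternatives for the junction share had an unadjusted exact p under it, and the sign of these small differences moved with the setting. For the read share, P3 minus P1 was 0.0133 in cd pigs alone and 0.0999 with at least 10 reads. P7 minus P1 was -0.170 in Novogene pigs alone. P28 minus P1 was 0.00598 with nv2 in place of the sum of nv1 and nv2, 0.146 in cd pigs alone, 0.153 with the pig of the shallow library kept and 0.174 without the cd libraries with few single counts. For the later ages together it was -0.194 in Novogene pigs alone, -0.00147 with no rule on reads or libraries and -0.00422 with a span under 300. For the junction share, P3 minus P1 was 0.0407 with at least 10 reads and, with a span under 300, -0.126 with an unadjusted exact p of 0.01. P7 minus P1 was -0.304 in Novogene pigs alone and -0.0205 with a span under 300, and P28 minus P1 was 0.121 in cd pigs alone. For the later ages together it was -0.304 in Novogene pigs alone, with an unadjusted exact p of 0.0303, 0.105 in cd pigs alone and 0.0326 with at least 10 reads. The cause of these changes was not tested.

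With each pig left out, the read share difference ranged from -0.129 to 0.00318 at P3 (above 0 only without P3 cd pig 5), 0.0982 to 0.341 at P7, -0.210 to -0.0165 at P28 and -0.0402 to 0.0850 for the later ages together. The last was below 0 without P1 pig 2 of Novogene (-0.0402), P1 cd pig 5 (-0.0351), P7 cd pig 4 (-0.00442), P7 cd pig 5 (-0.0211) or P28 cd pig 4 (-0.000528). The junction share difference ranged from -0.255 to -0.118 at P3, -0.0237 to 0.0896 at P7, -0.224 to -0.0779 at P28 and -0.155 to -0.0419 for the later ages. At P7 it was below 0 without P1 pig 2 of Novogene (-0.0237), P7 pig 3 of Novogene (-0.0111), P1 cd pig 5 (-0.0142) or P7 cd pig 5 (-0.00301).

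The counts of members called between ages (16, 11, 19 and 19 for P3, P7, P28 and the later ages together) were 3, 3, 7 and 5 with DESeq2, 43, 25, 37 and 172 (12, 13, 14 and 7 of them higher) with no filter on low counts, which tests more circRNAs, and 0 in each when 10 counts were required in 6 or more pigs, which tests fewer. At an adjusted p under 0.05 they were 0 in each. With nv2 in place of the sum they were 10 at P3 and 7 at P28. In Novogene pigs alone they were 7, 6 and 11 at P3, P28 and the later ages, and in cd pigs alone 4, 5, 5 and 9. Without the cd libraries with few single counts 22 were called at P7. With each pig left out they ranged from 12 to 19, 9 to 14, 15 to 23 and 12 to 22, the 12 for the later ages (5 of them higher) without P1 cd pig 4. The replicate numbers of different ages share only a number. With the number as a block, 9, 10, 11 and 14 members were called, and the read share difference at P28 was -0.0101.

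Between nv1 and nv2, 18 members were called. This was 9 with DESeq2, 9 with no filter on low counts, 2 when 10 counts were required in 6 or more libraries, and 31 without the pairing by pig as a block. With each pig left out it was 9 to 15.

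Depth limited single circRNAs: the median member had 6 reads, and 769 of 908 members were too rare for the fit of ages.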

Other observations

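The span was a multiple of 3 in 354 of 908 short-span circRNAs (38.99%) and in 33.19% of all 48111 junctions. Among the 191 members counted in 6 or more libraries it was 35.6%. Members of 1 group can share an end position, and the shares were not tested.

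Besides the stretch on chromosome 7, a stretch on the plus strand of chromosome 2, chr2:16393426-16475546, held 9 members in 8 groups with 91 reads. One on the plus strand of chromosome 17, chr17:43567298-43581705, held 6 members with 23 reads, none of them in 6 or more libraries. In all, 35 stretches held 3 or more members, 158 members together.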
